A study of Caenorhabditis elegans with 2 samples.

Results

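CDC-48 is a AAA-type ATPase, known in human cells as VCP, that pulls ubiquitylated proteins out of complexes, membranes and chromatin. Caenorhabditis elegans carries 2 genes for it, cdc-48.1 and cdc-48.2. The adaptor proteins UFD-1 and NPL-4 pair up and hand ubiquitin-marked substrates to the ATPase, and NPL-4 is also encoded by 2 genes, npl-4.1 and npl-4.2. In worm embryos CDC-48 with UFD-1 and NPL-4 is known for taking replication factors off chromatin, and in yeast and human cells the same machine extracts misfolded proteins from the endoplasmic reticulum. These 5 genes, of 19973 nuclear protein-coding genes, were taken by name. They were chosen by the rank of their promoter peaks, the peak of cdc-48.1 being among the strongest listed, so these ranks are given as descriptions and without tests.

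LIN-13 has zinc fingers and belongs to the synMuv B chromatin regulators. It was mapped by chromatin immunoprecipitation and sequencing in whole L2 larvae of pooled sex. The strain, OP49, has the genotype unc119(ed3) and carries the array wgIs49, in which lin-13 is fused to TY1, EGFP and FLAG tags beside an unc119 copy. Both replicates share this genotype, no lin-13 mutation is listed in it, and there is no group with another genotype or stage. The label for the antibody reads lin-13, and the experiment's description names the EGFP fusion as target. Whole animals were used, so cell types cannot be told apart. Each replicate list and the list of the pooled replicates holds 30000 entries, and the thresholded list holds the 3040 of highest signal in the pooled list. Depth is unknown, because the lists hold no read counts. Rank 1 is the entry of highest deposited signal in a list, and the promoter window runs from 1000 bp upstream to 200 bp downstream of the outermost annotated start.

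Among the 5 genes, cdc-48.1 alone had a thresholded summit in its promoter window. Over all nuclear protein-coding genes 11.6% had one. The other 4 genes had none: cdc-48.2 and ufd-1 had entries below the threshold, and npl-4.1 and npl-4.2 had no entry of any rank there. An entry of any rank was listed for 3 of the 5 genes in the pooled list, where 36.3% of all genes had one. It was also 3 of 5 in replicate 1 (38.6% of all genes) and 3 of 5 in replicate 2 (36.0%). The choice of genes used these lists, so nothing is read from the counts.

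The sequence around the strongest promoter summit of each ATPase gene is shown because the paralogues are compared there, together with the second cdc-48.2 summit. Each window spans 75 bases on either side of a pooled summit and is written 5′ to 3′ on the gene's strand, from the RefSeq WBcel235 assembly, which has the coordinates of ce11. Capitals mark matches to the motifs described further on. The windows are chrII:10563506-10563656 on the minus strand for cdc-48.1, and chrII:8137540-8137690 (distal) and chrII:8138127-8138277 (proximal) on the plus strand for cdc-48.2.
cdc-48.1: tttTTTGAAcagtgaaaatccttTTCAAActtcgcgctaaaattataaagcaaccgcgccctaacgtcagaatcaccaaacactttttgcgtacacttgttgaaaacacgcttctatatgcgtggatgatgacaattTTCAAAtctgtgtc
cdc-48.2 distal: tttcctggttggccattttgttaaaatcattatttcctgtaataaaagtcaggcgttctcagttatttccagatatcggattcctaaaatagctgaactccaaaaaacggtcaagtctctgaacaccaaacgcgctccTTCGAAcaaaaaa
cdc-48.2 proximal: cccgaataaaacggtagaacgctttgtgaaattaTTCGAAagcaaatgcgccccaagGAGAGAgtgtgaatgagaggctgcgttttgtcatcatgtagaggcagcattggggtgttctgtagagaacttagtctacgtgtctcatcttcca

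The promoter of cdc-48.1 (WBGene00007352, II:10560036-10563407 on ce11, minus strand) held 1 entry in every list. The peak at II:10563410-10563731 began 3 bases beyond the annotated start and lay wholly upstream of the gene. It ranked 8 of 30000 in the pooled list, 4 in replicate 1 and 12 in replicate 2. Its summit was 174 bp upstream of the start in the pooled list, 175 bp in replicate 1 and 179 bp in replicate 2, so the position moved by at most 5 bp between lists. The deposited signal was 1354 in the pooled list, whose highest value was 2631 and whose lowest thresholded value was 55.1. By the strongest entry in the window, cdc-48.1 stood at place 2 of the 7260 protein-coding genes with any pooled promoter entry. That summit lay in the window of no other protein-coding gene. The next gene upstream, C06A1.6, starts 1271 bp from the cdc-48.1 start, on the same strand.

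**Figure D1:**
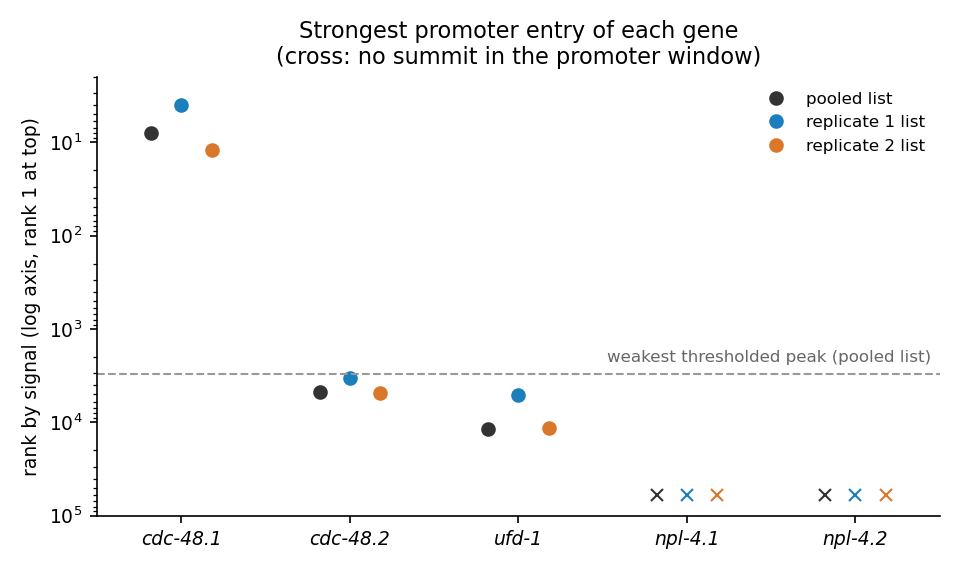
Rank by deposited signal (log axis, rank 1 at the top) of the strongest promoter entry of each gene, in the pooled, replicate 1 and replicate 2 lists, with a dashed line at the weakest thresholded peak. The entry of cdc-48.1 ranked 8, 4 and 12, those of cdc-48.2 and ufd-1 lay below rank 3040 in all 3 lists, and crosses show that npl-4.1 and npl-4.2 had none.

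Within the replicates cdc-48.1 stood with the strongest promoters of the whole list. By the summed difference of log10 rank in replicates 1 and 2, the closest genes were K01G5.10 and tasp-1, which share 1 peak (ranks 3 and 15, difference 0.22), and the ribosomal protein gene rpl-35 (ranks 5 and 22, difference 0.36). This likeness rests on 2 replicates and on a measure that chose the gene.

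**Figure D2:**
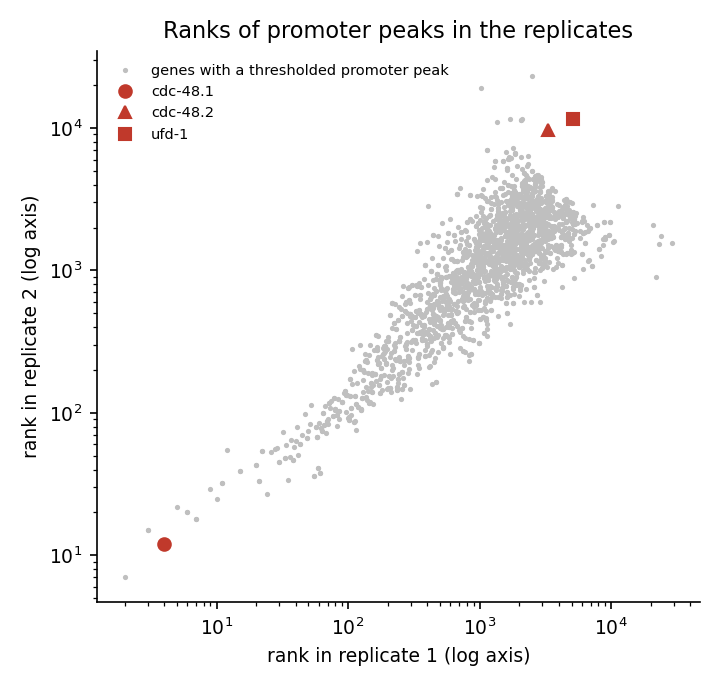
Rank in replicate 1 against rank in replicate 2 (both log axes) of the strongest promoter peak of each gene with a thresholded promoter summit and an overlapping entry in both replicates (grey). The cdc-48.1 peak lies at ranks 4 and 12 in the lower left, while the pooled promoter entries of cdc-48.2 (overlapping entries ranked 3339 and 9623) and ufd-1 (5106 and 11647) lie at the upper right.

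The rest of the cdc-48.1 neighbourhood carried many weaker entries, most of them on the side of the gene's 3′ end. Within 5000 bp of the gene body the pooled list held 13 entries, replicate 1 held 12 and replicate 2 held 10. Of the 13 pooled entries 11 overlapped an entry in both replicates, although some neighbouring ones overlapped the same replicate entry. Besides the promoter peak, 3 of them were thresholded, with summits 4344, 5939 and 7798 bp downstream of the cdc-48.1 start. The summit at 7798 bp, pooled rank 2583, lay in the promoter window of mnk-1, a kinase gene, 565 bp upstream of its start. The snoRNA gene R166.10, with its start 8036 bp from that of cdc-48.1, started nearer to this summit than mnk-1 did. The summits at 5939 bp (pooled rank 2090) and 4344 bp (pooled rank 2949) were intergenic, but the peak of the former overlapped the ncRNA gene R166.11. The one at 5939 bp overlapped entries ranked 1692 in replicate 1 and 2085 in replicate 2, whereas the one at 4344 bp overlapped entries ranked 1535 and 8910, so the replicates placed it far apart. Inside the gene the pooled list held 1 entry, in a coding exon 1141 bp from the start, at pooled rank 13604. The snoRNA gene C06A1.9 also lies inside cdc-48.1, on the same strand, with its start 343 bp from that of cdc-48.1. The lists give no way to assign the upstream peak to either gene.

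The paralogue cdc-48.2 (WBGene00008053, II:8138496-8141230, plus strand) had weak promoter entries, and the strongest of them lay at different sites in the replicates. In the pooled list the stronger one ranked 4694, with a signal of 40.2 and its summit 881 bp upstream of the start. That summit also lay in the promoter window of ctns-1, a cystinosin homologue on the opposite strand, and was nearer to the ctns-1 start, at 697 bp. The second pooled summit, 294 bp upstream of cdc-48.2, ranked 15931. In replicate 1 the only promoter entry ranked 3339, lay 957 bp upstream and overlapped the stronger pooled entry. In replicate 2 that pooled entry was overlapped by an entry ranked 9623, with its summit 1100 bp upstream and thus outside the window, and by one ranked 13773, with its summit 860 bp upstream. The best promoter rank in replicate 2, 4846, came from an entry 301 bp upstream, at the second pooled summit, where replicate 1 listed no overlapping entry. The distal site was thus listed in both replicates and the proximal one in replicate 2 only.

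Of 9 pooled entries within 5000 bp of cdc-48.2, 3 overlapped an entry in both replicates. The only thresholded one, pooled rank 2389, had its summit at 8143479. It lay 1 bp upstream of the start of ints-11, an Integrator complex gene whose end overlaps the end of cdc-48.2, and also in the promoter window of the ribosomal protein gene rpl-10. It ranked 3013 in replicate 1 and 1852 in replicate 2.

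The ATPase genes differed less in their coding sequence than upstream. The coding sequences, 2427 bp for cdc-48.1 and 2430 bp for cdc-48.2, were identical at 76.6% of 2409 aligned bases. Over the 1000 bp upstream of each start the identity was 54.8% of 911 aligned bases, with 178 gap columns in the alignment. In neither gene was the sequence under the promoter entries repeated: 0 of the 30-base words in the cdc-48.1 peak, or in either pooled cdc-48.2 promoter entry, recurred elsewhere in the genome. A read of at least 30 bases from these entries thus matches 1 locus. The ranks of the pair did not overlap between replicates (4 and 12 against 3339 and 4846), but the pair was chosen with these ranks known and 2 replicates allow no test.

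**Figure D3:**
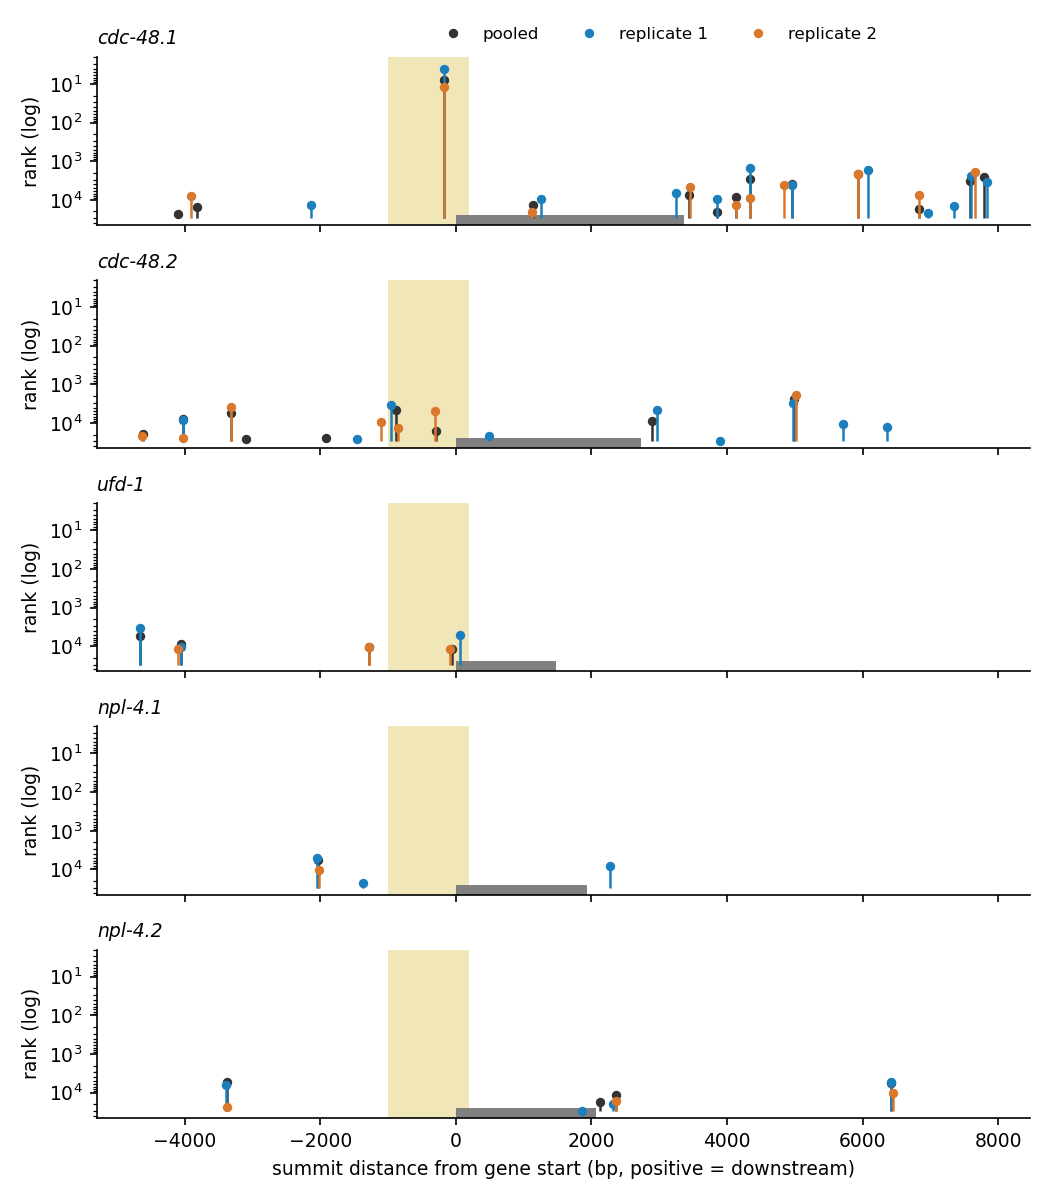
Entries within 5000 bp of each gene body, placed by the distance of the summit from the gene's start (bp, positive downstream) and by rank in the list (log axis, rank 1 at the top), for the pooled list and both replicates. Shading marks the promoter window and the grey bar the gene. The column of 3 entries at ranks 4 to 12 stands only over the cdc-48.1 window, and the npl-4.1 and npl-4.2 windows are empty.

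The adaptor gene ufd-1 (WBGene00006733, IV:12329408-12330890, minus strand) had 1 entry in its promoter window in each of the pooled and replicate lists, none of them thresholded. It ranked 11788 in the pooled list, with a signal of 23.4, and 5106 and 11647 in replicates 1 and 2. The summit lay 53 bp upstream of the start in the pooled list and 81 bp upstream in replicate 2, but 62 bp downstream in replicate 1. The gene F19B6.1 ends 85 bp upstream of ufd-1 on the same strand, so the pooled summit fell in the gap between these genes. Of 4 pooled entries within 5000 bp, 2 overlapped an entry in both replicates. The strongest of the 4, pooled rank 5511, lay 4654 bp upstream. It ranked 3347 in replicate 1, and replicate 2 listed no entry overlapping it. By the strongest entry in the promoter window ufd-1 stood below cdc-48.2 in each list. That order did not hold in every reading: with a window of 500 bp before to 100 bp after the start, cdc-48.2 fell to pooled rank 15931 while ufd-1 kept 11788. Matched at the stronger pooled entry, cdc-48.2 ranked ahead of ufd-1 in replicate 1 (3339 against 5106) and in replicate 2 (9623 against 11647). The summit ranked 9623 lay outside the promoter window, however, and the overlapping entry inside it ranked 13773, behind ufd-1. With 2 replicates the order was not tested.

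The genes npl-4.1 (WBGene00019120, II:5631351-5633284) and npl-4.2 (WBGene00019121, II:5622889-5624959) lie on the plus strand with their starts 8462 bp apart. No list held a summit in either promoter window. The 150 bases before each start, chrII:5631201-5631350 and chrII:5622739-5622888, are shown because they are the same in both genes (RefSeq WBcel235; capitals mark the TTTGAA motif).
npl-4.1: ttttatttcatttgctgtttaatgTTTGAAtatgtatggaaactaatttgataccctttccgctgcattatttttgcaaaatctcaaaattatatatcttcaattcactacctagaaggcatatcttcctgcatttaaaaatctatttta
npl-4.2: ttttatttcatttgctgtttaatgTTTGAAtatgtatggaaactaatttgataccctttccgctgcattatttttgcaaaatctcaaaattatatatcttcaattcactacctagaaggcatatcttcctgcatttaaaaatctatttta

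That identity reached much farther. An unbroken run of 1339 identical bases began 1325 bp upstream of each start, so all 1000 upstream bases of the promoter windows were the same. The coding sequences, 1587 bp each, were identical at 1579 positions (99.5%). Of the 30-base words of each promoter window 97.4% occurred more than once in the genome, as did 86.9% of those in the npl-4.1 gene and 84.9% in npl-4.2. A read from most of this sequence matches both loci equally well. No source used here says whether reads with several equal matches were kept.

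How the peak lists behaved over such sequence in general was then counted over all 19973 genes. The promoter windows of 257 genes, npl-4.1 and npl-4.2 among them, were made up to at least 90% of repeated 30-base words. Of these 257 genes 0 had a summit of any rank in the pooled list, and 0 had one in replicate 1 or in replicate 2. Where 10% to under 90% of the words were repeated, 515 of 2733 genes (18.8%) had a pooled entry and 177 (6.48%) a thresholded summit. Where under 10% were repeated, 6745 of 16983 genes (39.7%) had a pooled entry and 2135 (12.6%) a thresholded summit. The classes were set after the lists were seen, and the part of repeated sequence in the empty npl-4.1 and npl-4.2 windows was not tested. These genes have no rank to set beside the others. The window of cdc-48.1 had 10.6% repeated words, all outside the peak, and those of cdc-48.2 and ufd-1 had 0.

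**Figure D4:**
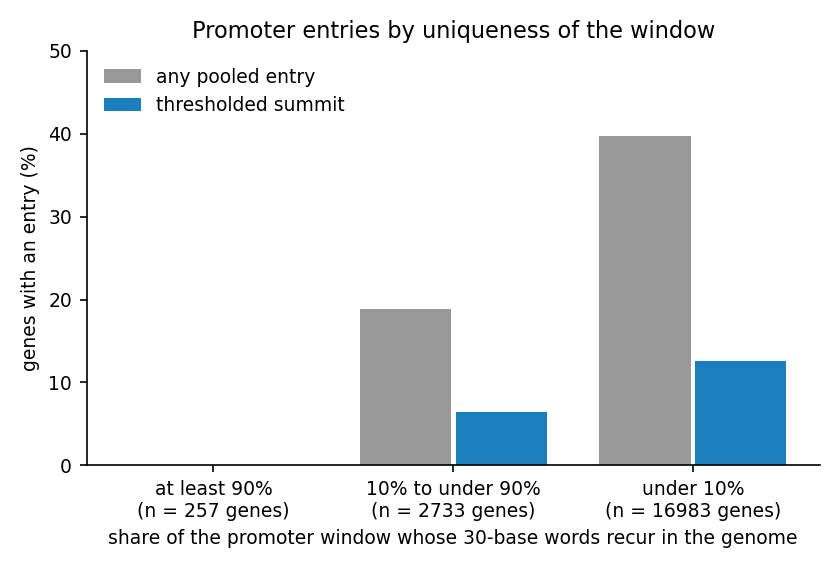
Share of genes (%) with any pooled entry (grey) and with a thresholded summit (blue) in the promoter window, by the share of the window's 30-base words that recur in the genome. None of the 257 genes with at least 90% repeated words, which include npl-4.1 and npl-4.2, had an entry, against 39.7% of genes with under 10%.

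Around the npl-4 genes, the entries that were listed lay mostly in unique sequence. Within 5000 bp of npl-4.1 the pooled list held 1 entry, 2036 bp upstream of its start, inside F59E12.6 and in the promoter window of F59E12.15, at pooled rank 5788. It overlapped entries ranked 5212 in replicate 1 and 10396 in replicate 2. Within 5000 bp of npl-4.2 the pooled list held 4 entries, of which that one was the farthest. The strongest of them, pooled rank 5425, lay 3384 bp upstream of npl-4.2 in the promoter of dhs-6. The other 2 lay just past the npl-4.2 end, at ranks 11295 and 17723. None was thresholded. The replicate 1 entries that reached farthest into the duplicated sequence, 1376 bp upstream of npl-4.1 and at the 3′ end of npl-4.2, were made up of repeated words to 28.7% and 48.5% and ranked only 22185 and 29826.

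Motifs of factors known to act at promoters were searched in the summit windows and promoters of the genes, on both strands, with overlapping matches allowed. The first was TTTGAA, the CHR element bound by the DREAM subunit LIN-54 and its homologues, and a variant of it was TTCGAA. Motifs like those of E2F factors were GCGGGAA on the one hand and TTTCGCG on the other. The repeat GAGAGA was searched as well, as were the E-box CACGTG, the GC box core CCGCCC and, for the heat shock element, the pattern GAANNTTC. In the cdc-48.1 window shown above, TTTGAA occurred 3 times, starting 72 and 52 bases before and 62 bases after the summit on the gene's strand, and no other motif of the list matched. At least 1 TTTGAA was present in 28.0% of the 3013 nuclear summit windows of the same length, and at least 3 in 0.564% (17 windows). The cutoff of 3 was the count in the cdc-48.1 window, itself among the 17, so nothing is read from that share. The GC content of the cdc-48.1 window was 37.7%, lower than the median of 43.7% over the 3013 windows. The distal cdc-48.2 window, which held no TTTGAA, had the same GC content of 37.7%. Whether base composition bears on the matches was not tested.

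The windows of cdc-48.2 held no TTTGAA. Each had 1 TTCGAA, a motif found in 10.1% of summit windows, and the proximal one also 1 GAGAGA, found in 35.7%. The ufd-1 summit window had 1 TTTGAA and a GC content of 25.2%. In promoters of 300 bases, from 250 before to 50 after the start, TTTGAA was present in 62.5% of the 19973 genes and at least 3 times in 9.35%. The cdc-48.1 promoter, which contains its summit window, held the same 3 matches. The promoter of ufd-1 held 1 TTTGAA and 1 CACGTG, the latter present in 5.82% of promoters. That of cdc-48.2 held 1 TTTCGCG, present in 3.78%, and 1 GAGAGA, present in 21.8%. These matches describe letters in a window and not sites.

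Other genes of the pathway were counted from lists of further CDC-48 cofactors, of endoplasmic-reticulum-associated degradation and of other AAA ATPases. Of 12 cofactor genes 4 (33.3%) had a thresholded promoter summit, against 11.6% of all genes. The strongest were ubxn-2, a homologue of the human cofactor p47 (pooled rank 348; 381 in replicate 1 and 358 in replicate 2), ufd-3, which encodes a WD-repeat ubiquitin-binding protein (506; 632 and 452), the ubiquitin chain elongation gene ufd-2 (929; 1077 and 909) and ubxn-3, a homologue of human FAF1 (1136; 1125 and 1285). None of these 4 summits lay in the window of another protein-coding gene. Below the threshold were ubxn-4 (4978), atx-3 (16829), which encodes a deubiquitylating enzyme, and png-1 (26534), an N-glycanase gene. In the pooled list 5 of the 12, namely dvc-1, ubxn-1, ubxn-5, ubxn-6 and vms-1, had no promoter summit. For ubxn-6 a thresholded summit of pooled rank 1304 lay just outside the window, 1047 bp upstream of the start.

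Of 10 matched genes of endoplasmic-reticulum-associated degradation 6 (60.0%) had a thresholded promoter summit, against 11.6% of all genes. With each summit given to its nearest protein-coding start only, 4 remained, and the count over all genes fell from 2312 to 1669. The 6 genes were led by the ubiquitin-conjugating enzyme gene ubc-7 (pooled rank 389; 836 in replicate 1 and 256 in replicate 2), the ubiquilin gene ubql-1 (411; shared with the protein disulfide isomerase gene pdi-3), ubc-6 (697; shared with aka-1) and the derlin gene cup-2 (1606; shared with tag-353). The ubiquitin ligase genes sel-11 (rank 7253) and hrdl-1 (rank 13583) and the adaptor gene sel-1 (rank 4166) were below the threshold, and der-2 had no pooled entry. Another 3 names of this list matched no gene of the annotation.

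Of 20 other AAA ATPase genes 10 had a thresholded promoter summit. The strongest were atad-3, which encodes a mitochondrial ATPase (pooled rank 236; 238 in replicate 1 and 237 in replicate 2; shared with nrde-2), vps-4, which disassembles ESCRT filaments (241; 192 and 285), the spastin gene spas-1 (402; 344 and 433) and the proteasome ATPase gene rpt-2 (483; 825 and 440; shared with aps-1). For the nuclear VCP-like gene mac-1 the strongest entry ranked 25896. With each summit given to its nearest protein-coding start only, the count of 10 fell to 8. No gene of the 3 lists reached the rank of cdc-48.1, and the best of them, atad-3, stood at place 252 among all genes with a promoter entry, where cdc-48.1 stood at place 2. Among genes with a pooled promoter entry the median rank was 1136 for the cofactors, 1694 for degradation genes and 1517 for AAA ATPases, and 7203.5 over all 7260 genes. The 3 lists were chosen with earlier results of these data known, so nothing is read from these shares and medians. No test was made of them.

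**Figure D5:**
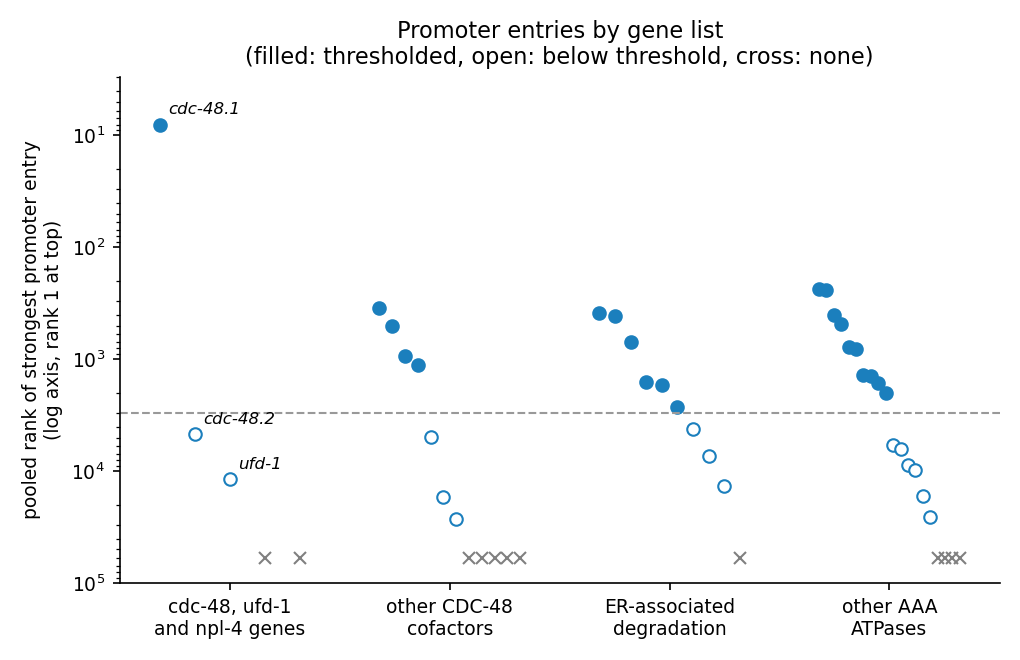
Pooled rank (log axis, rank 1 at the top) of the strongest promoter entry of each gene in the named set and in the 3 further lists. Filled points are thresholded, open points are below the threshold marked by the dashed line at rank 3040, and crosses have no pooled summit in the window. The cdc-48.1 point at rank 8 stands above all others, the next being atad-3 at 236.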

How the data were processed

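Peak lists from ChIP-seq of tagged LIN-13 in L2 larvae were used. The samples are 2 biological replicates of 1 group per the labels. Replicate and pooled lists, per the deposited file listings, were the input of an irreproducible discovery rate (IDR) step, and the thresholded list was derived from these 3 lists. No source used here names the aligner, the peak caller or their settings. The deposited signal value of each entry has no stated scale and served to rank entries within a list. The −log10 q value deposited by the authors was used only as an alternative ranking. The ce10 lists and the control experiment were not used here.

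Coordinates are 1-based on ce11, read against WBcel235 with Ensembl release 115 gene models and the RefSeq sequence. No entry ran past a chromosome end. Replicate entries were matched by at least 1 bp of overlap. A 30-base word counted as repeated if it, or its reverse complement, occurred elsewhere in the genome. Coding sequences (the longest per gene) were aligned globally with match 1, mismatch -1, gap opening -5 and extension -0.5, and identity is over aligned bases. Protein sequences were not used here.

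The 5 genes, the 3 lists and the motifs were chosen with earlier results of these data known, and the word length and the classes of repeated words after the lists were examined. Genes were named by rule: the 5 genes, genes sharing a promoter summit with them, up to 4 genes per list with the highest promoter signal, and the 3 genes closest to cdc-48.1 in replicate ranks. List genes below the threshold or without an entry, and mac-1, were named after their values were seen. The promoter counting was tested on simulated data: of 200 planted summits 200 were recovered, and 0 of 200 placed just outside the window were called. Alternatives were other windows, starts, overlap and distance rules, the nearest start, the stronger peaks, and single replicates (for thresholded counts, their 3040 strongest entries). Python 3.11.15, numpy 2.4.6, pandas 2.3.3, Biopython 1.88 and matplotlib 3.10.9 were used.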

Additional observations from a re-analysis of the deposited data

How the results depend on the processing

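Under all 8 alternatives run, cdc-48.1 and no other gene among the 5 had a thresholded promoter summit. The alternatives were other windows, starts, overlap rule, nearest start, stronger peaks and either replicate alone. For a replicate alone, its 3040 strongest entries stood in for the thresholded list. The set was chosen with the cdc-48.1 peak in view, at pooled rank 8 and replicate ranks 4 and 12. These settings had to return that peak, so nothing is read from its return. The count over all genes, 2312, fell to 1393 with the stronger peaks only, which are fewer by construction. The count of degradation genes, 6, was 3 with that subset and 3 when the window was narrowed to 500 bp before and 100 bp after the start. The other 37 comparisons of thresholded promoter counts stayed within 1.5 times, a limit that the cofactor count reached. That count, 4, was 3 with the narrowed window and 6 with 2000 bp before to 500 bp after the start. It was also 6 with any overlap of the window and with replicate 1 alone. The wider window and the overlap rule added atx-3 and ubxn-6, whereas replicate 1 added dvc-1 and ubxn-1. Counts of pooled entries near cdc-48.1, cdc-48.2, ufd-1, npl-4.1 and npl-4.2, which were 13, 9, 4, 1 and 4 within 5000 bp, were 7, 4, 2, 0 and 2 within 2000 bp and 21, 16, 4, 3 and 5 within 10000 bp. Within 5000 bp replicate 1 alone gave 12, 9, 3, 3 and 4, and replicate 2 alone gave 10, 7, 3, 1 and 3. For cdc-48.2, the narrow window left the pooled rank at 15931, below the 11788 of ufd-1. Ranked by −log10 q, the cdc-48.1 peak tied for rank 1 with the other entries at the highest value, 2426 in all. For npl-4.1 and npl-4.2 the pooled list gave no promoter rank even with a window of 2000 bp before to 500 bp after the start. The nearest pooled summits lay 2036 bp upstream of npl-4.1 and 2131 bp downstream of the npl-4.2 start. In replicate 1 that wider window would take in the npl-4.1 entry 1376 bp upstream, rank 22185. No paired analysis was possible because the replicates form 1 group. Depth is unknown, and ranks of weak entries spread widely between replicates, as for ufd-1 (5106 and 11647).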

Other observations

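Some entries that were strong in the replicates had no counterpart in the pooled list. Of the 3032 nuclear entries among the 3040 strongest of replicate 1, 105 overlapped no pooled entry, and 29 of these 105 overlapped an entry of replicate 2. Of the 3012 such entries of replicate 2, 36 overlapped no pooled entry, and 28 of these 36 overlapped an entry of replicate 1. Among the AAA ATPase genes, the promoter entry of the proteasome gene rpt-3 ranked 1983 in replicate 1 and 1759 in replicate 2, and that of the meiotic checkpoint gene pch-2 ranked 1537 and 2763, yet the nearest pooled summits lay 1013 and 2389 bp from these starts. Among the cofactors, dvc-1, which encodes a Spartan-type protease, and ubxn-1 had promoter entries only in replicate 1, at ranks 1375 and 1611. These genes were chosen after their values were seen. The promoter windows of npl-4.1 and npl-4.2 were empty in both replicates as well as in the pooled list.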
